A study of Mus musculus with 58 samples.

Results

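Glycolysis turns glucose into pyruvate in the cytosol, and when pyruvate is then reduced to lactate the cell regenerates the NAD+ that keeps the pathway running without oxygen. HSCs (hematopoietic stem cells) in their low-oxygen bone marrow niche are known for relying on this route while quiescent, with the HIF (hypoxia-inducible factor) transcription factors as classical activators of its genes, and for turning to mitochondrial oxidation when they divide and differentiate. The 10 genes described here span the route from glucose uptake to lactate, without its steps by Tpi1 and Gapdh. The upper ones are Slc2a1 (the glucose transporter GLUT1), Hk2 (a hexokinase), Gpi1 (glucose-6-phosphate isomerase), Pfkl (a phosphofructokinase) and Aldoa (aldolase A). The lower ones are Pgk1 (phosphoglycerate kinase), Pgam1 (phosphoglycerate mutase), Eno1 (enolase), Pkm (pyruvate kinase) and Ldha (lactate dehydrogenase A). All were taken by symbol from a fixed list, 10 of the 55376 gene symbols in the count tables, and all 10 passed the filter on low counts in every comparison. The list was selected on the RNA-seq counts of the groups compared below, in that it was drawn up with earlier results on these libraries known, so the counts of its genes that passed a test are a description and support nothing by themselves.

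On GRCm38.p6 the genes lie apart from each other, with Slc2a1 at chr4:119108711-119137983 and Eno1 at chr4:150236721-150248879 on the same chromosome. Ldha (chr7:46841475-46855627), Aldoa (chr7:126795234-126800751) and Gpi1 (chr7:34201330-34230336) share another. Hk2 lies at chr6:82725025-82774454, Pfkl at chr10:77986947-78010083, Pgk1 at chrX:106187100-106203699, Pgam1 at chr19:41911923-41918660 and Pkm at chr9:59656368-59679375, and all 10 are protein-coding.

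All mice were wild type C57BL/6 males. The OAL (Old Ad Libitum), OCR (Old Caloric Restricted) and OCRRF (Old Caloric Restricted Re-Fed) mice were 24 to 26 months old, and OCR mice had lived on 40% restriction since the age of 3 to 4 months. OCRRF mice had lived on the same restriction and then had free access to food for 4 weeks. The paper's methods give the young mice an age of 3 to 4 months. The YCR mice were young and restricted by 20% for 1 week and then by 40% for 3 weeks. YCRRF mice were young mice given free food for 4 weeks after such restriction, and YAL mice were young and fed ad libitum. HSCs of these groups were sorted as Lin- Sca-1+ c-Kit+ CD34- Flk2- CD150+ cells. The labels count 4 RNA-seq libraries each for OAL, OCR, YAL, YCR and YCRRF and 2 for OCRRF. In the knockdown libraries, HSCs of aged mice carried a lentiviral shRNA and were sorted as LSK CD48- CD150+ CD45.2+ cells after transplantation into lethally irradiated young female CD45.1 recipients, so these cells had divided in an irradiated host. GFP_Kdr (4 libraries) carried an shRNA against Kdr, the VEGF receptor VEGFR2, with a GFP reporter, and Double_KdrBmpr (4 libraries) carried it together with 1 of 2 shRNAs against Bmpr1a, a BMP receptor. Each had its own scramble control of 2 libraries, GFP_Scramble and Double_Scramble. In Double_KdrBmpr, replicates 1 and 2 carried Bmpr1a shRNA 1, and replicates 3 and 4 carried Bmpr1a shRNA 2. The fit took all 4 as 1 group, so its spread also holds that between the constructs. ATAC-seq of open chromatin (4 OCR and 2 OCRRF libraries), ChIP-seq of the transcription factor PU.1 (2 libraries per old group) and ChIP-seq of the histone marks H3K4me3 and H3K27me3 (2 OCR libraries each) give measures of the same genes that played no part in choosing them. For RNA-seq of the diet groups, the paper's legends give as many mice per group as there are libraries. The sources used here do not name the animals behind each library. The p-values measure the spread between these libraries, part of which may be technical.

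The RNA-seq libraries held 11102898 to 44780217 counts. Markers of HSCs were present throughout, with Kit at 896 to 1900.2 CPM and Hlf at 234 to 684 CPM over all libraries. CPM is the count scaled to the library's total. For single genes of glycolysis and its neighbouring pathways and for the knockdown targets it is also scaled by TMM, a correction for composition. Sums over marker, proliferation, and olfactory and vomeronasal receptor genes and the levels of single marker genes are without TMM. Libraries of the old mice detected 42071 to 46646 genes and those of the young mice 22209 to 33496. Olfactory and vomeronasal receptor genes were summed as a measure of background, meaning reads off expressed genes. They took 530 to 1486 CPM in the old and 66.5 to 474 CPM in the young. The age groups thus differed in background as well as in age. The part of this background in the differences with age was not tested. One YCRRF library, replicate 3, stood apart with 4.09% of its counts from mitochondrial genes, and replicate 4 of that group was the shallowest. Proliferation genes (13 genes such as Mki67, Top2a and the Mcm helicases) summed to 1819 to 2436 CPM in OCR, above the range of 1061 to 1176 CPM in OAL (two-sided exact permutation p = 0.0286, the smallest 4 against 4 libraries can give) and the 1005 to 1059 CPM of OCRRF (exact p = 0.0667, the smallest 4 against 2 can give). In bulk RNA, a change in the share of cells that express a gene and a change in RNA per cell cannot be told apart.

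The promoters of Ldha, Pgk1 and Aldoa are shown because they carry the letters ACGTG, the core of the element that HIF binds, within 250 bases before an annotated start. The stretches are read 5′ to 3′ on the gene's strand from GRCm38.p6, the build of the files, and end at the base before the start, and those of Ldha and Aldoa lie within the annotated span of their gene, where a longer transcript starts further upstream; capitals mark ACGTG and its reverse complement CACGT, which overlap where the palindrome CACGTG occurs.
Ldha, chr7:46845554-46845803, plus strand: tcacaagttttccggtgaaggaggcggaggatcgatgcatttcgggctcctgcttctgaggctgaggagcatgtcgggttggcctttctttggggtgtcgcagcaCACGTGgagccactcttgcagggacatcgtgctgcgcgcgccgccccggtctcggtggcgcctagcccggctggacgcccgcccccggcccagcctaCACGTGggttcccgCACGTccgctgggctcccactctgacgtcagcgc
Pgk1, chrX:106186850-106187099, plus strand: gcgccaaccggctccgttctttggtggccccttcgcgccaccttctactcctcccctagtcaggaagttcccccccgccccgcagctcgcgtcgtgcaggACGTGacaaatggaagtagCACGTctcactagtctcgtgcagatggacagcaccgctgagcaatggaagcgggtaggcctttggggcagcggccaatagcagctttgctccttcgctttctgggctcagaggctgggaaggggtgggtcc
Aldoa, chr7:126799255-126799504, minus strand: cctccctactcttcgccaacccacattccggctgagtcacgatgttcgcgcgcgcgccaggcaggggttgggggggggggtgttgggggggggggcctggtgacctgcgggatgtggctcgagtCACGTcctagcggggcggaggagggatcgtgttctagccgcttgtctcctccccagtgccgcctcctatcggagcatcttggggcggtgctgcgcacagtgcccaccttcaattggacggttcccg

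In the Ldha stretch 5 matches were found on both strands, of which 4 make up a pair of CACGTG palindromes starting 145 and 48 bases before the start. Over all promoters of the 10 genes, 7 genes held ACGTG on either strand (Hk2, Aldoa, Pgk1, Pgam1, Pkm, Ldha and Slc2a1), and 18.5% of 27025 genes held it in a window of the same length. GCGTG, the other common spelling of the HIF core, stood in 5 of the 10 (Pfkl, Pgam1, Eno1, Ldha and Slc2a1) and in 30.9% of all genes, and CACGTG stood in Ldha alone of the 10 and in 6.86% of all genes. Windows of the 10 genes with ACGTG held 61.6 to 69.6% G and C, against a median of 52.4% over all windows. The part of base content in these shares was not tested. A match describes the letters and not binding.

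A further pair of sequences is shown because PU.1, the ETS-family factor that drives myeloid and lymphoid fates and binds purine-rich sites around GGAA, had promoter peaks at 2 of the 10 genes, Aldoa and Pkm. For Aldoa the site is the only match of GAGGAAG (either strand, in capitals) within the bases that the peaks of all libraries shared, on the minus strand and for the most part in an exon. For Pkm the stretch is the part of the shared bases that lies before the first annotated exon, on the plus strand, with GGAA and its reverse complement TTCC in capitals. Within 250 bases before a start, GAGGAAG on either strand stood in 12.0% of 27025 genes. Of the 10 genes, Aldoa held it there at another site, and so did Pgam1, which had no PU.1 promoter peak. The capitals describe letters and not binding.
Aldoa, chr7:126798822-126798848, minus strand: catgccggggGAGGAAGcaagatgagg
Pkm, chr9:59656230-59656367, plus strand: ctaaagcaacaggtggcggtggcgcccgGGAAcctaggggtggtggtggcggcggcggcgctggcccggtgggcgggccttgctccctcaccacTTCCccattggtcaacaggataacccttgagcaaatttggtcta

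Per length of exon (RPKM), the 10 genes kept 1 order of level, whatever the diet. Ldha was the highest, Aldoa the second, Pkm the third and Eno1 the fourth in all 10 groups, and Pfkl, Pgam1, Slc2a1 and Hk2 took places 7 to 10 in all 10. Gpi1 stood above Pgk1 in the 6 diet groups and below it in the 4 transplanted groups. In OAL the mean level was 386 RPKM for Ldha, 186 for Aldoa, 180 for Pkm, 76.1 for Eno1 and 53.5 for Gpi1. The lower members averaged 39.3 RPKM for Pgk1, 33.6 for Pfkl, 26.3 for Pgam1, 17.8 for Slc2a1 and 9.11 for Hk2. This order rests on the exon lengths used. By CPM in OAL, Pkm (mean 901) stood above Aldoa (541), and Pfkl (224) above Pgk1 (88.2). Some neighbours in this order did not differ beyond the spread of their libraries. Aldoa (182 to 189 RPKM) and Pkm (173 to 188 RPKM) overlapped in OAL, and likewise in OCR and OCRRF, whereas they were apart in the 3 young groups and the transplanted cells. Pgk1 and Pfkl overlapped in OCR and in all 3 young groups, Pfkl and Pgam1 overlapped in OCR, YCR and both knockdown groups, Pgam1 and Slc2a1 in YCRRF, and Gpi1 and Pgk1 in GFP_Kdr. Ldha was among the most abundant messages of these cells, at percentile 99.3 to 99.7 of protein-coding genes detected at 1 CPM, whereas Hk2 moved from percentile 34.9 in GFP_Kdr to 67.4 in OCRRF. The genes ranked numbered 12020 in GFP_Kdr and 15381 in OCRRF, with receptor background at 21.5 to 42.1 and 1161 to 1486 CPM. Transplanted libraries were also made with another RNA extraction, kit number and sequencer. The part of these in the shift of Hk2 was not tested. Together the 10 genes took 0.359 to 0.451% of all counts. Near copies of glycolysis genes (15 pseudogenes and relatives) took 0.0003 to 0.0014%, and since the treatment of multi-mapping reads and of strand in the counting is not given in the sources used here, a small exchange of reads with these copies is possible.

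**Figure D1:**
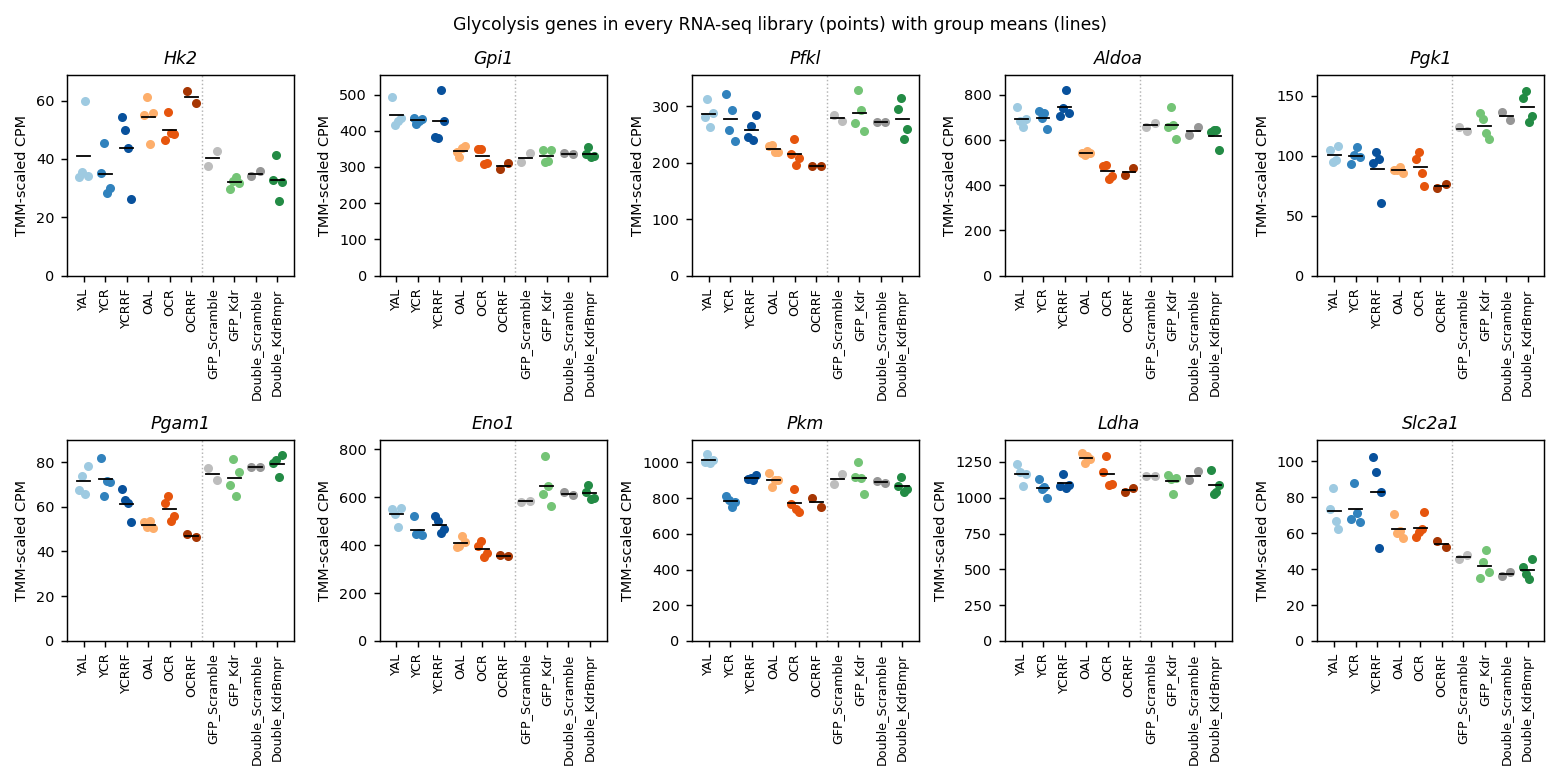
TMM-scaled CPM (vertical axes, from 0) of each glycolysis gene in every RNA-seq library (points) with group means (lines). The old groups OAL, OCR and OCRRF sit below the young groups for Gpi1, Aldoa and Eno1 and, in their means, for Pfkl, and GFP_Scramble, GFP_Kdr, Double_Scramble and Double_KdrBmpr, right of the dotted line, were scaled separately from the diet groups.

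The first comparison asks how lifelong restriction changed these genes. None of the 10 passed the test between OCR and OAL (edgeR's quasi-likelihood test, a fold over 1.2 and an adjusted p below 0.05 over all genes), where 5.57% of 27150 genes tested did. In the lower direction 822 genes passed, and 10.2% of genes at least as abundant as the lowest of the 10 passed in either direction. DESeq2 called 0 of the 10 as well, and 3 had an unadjusted p below 0.05. Fitted log2 fold changes ran from -0.21 to 0.20 with a median of -0.07, beside 0.02 over all genes, and 7 of 10 were below 0. Proliferation genes, measured in the same libraries, passed the test in the higher direction in 13 of 13 cases, with a median log2 fold change of 1.13.

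Aldoa, which splits fructose bisphosphate into its triose products, gave 541, 531, 551 and 543 CPM in OAL and 487, 491, 429 and 442 CPM in OCR. All OCR libraries lay below all OAL libraries, but the log2 fold change of -0.21 (SE 0.08) had an adjusted p of 0.130. Mitochondrial genes took 1.14 to 1.29% of counts in OCR against 1.36 to 1.55% in OAL (exact p = 0.0286), and the part of this in the differences of the contrast was not tested. Pgam1, which moves the phosphate of phosphoglycerate ahead of enolase, was the one gene with every OCR library above every OAL library, at 61.8, 64.8, 53.8 and 55.7 CPM against 53.2, 51.0, 53.5 and 50.4 CPM. Its log2 fold change was 0.20 (SE 0.09, adjusted p = 0.236), with replicate 3 of OCR barely above the highest OAL library. Groups were apart in the higher direction for 4.45% of all genes and in the lower for 6.06%.

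Pkm gave 939, 864, 902 and 900 CPM in OAL and 769, 851, 737 and 723 CPM in OCR, with a log2 fold change of -0.21 (SE 0.08, adjusted p = 0.142). Its highest OCR library, replicate 2, lay just below the OAL libraries on this scale and among them when scaled for the contrast alone, and without it Pkm was called at -0.27. Ldha gave 1309, 1240, 1289 and 1272 CPM in OAL and 1177, 1290, 1091 and 1098 CPM in OCR (log2 fold change -0.12, adjusted p = 0.530), and the groups overlapped through that same OCR library. The other 6 genes (Hk2, Gpi1, Pfkl, Pgk1, Eno1 and Slc2a1) had log2 fold changes of -0.10 to 0.05 and overlapping groups.

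Other genes of the pathway, which set the flow of glucose carbon rather than carry it, passed the test in the same libraries. In OCR, 3 of 13 regulators of glycolytic flux fell and none rose. Txnip, an arrestin that restrains glucose uptake, gave 2190, 2098, 2363 and 2677 CPM in OAL and 1113, 963, 1082 and 1208 CPM in OCR, with a log2 fold change of -1.08 (adjusted p = 2.99e-09). Its relative Arrdc4, which also acts on glucose transporters, fell by 0.93 on the log2 scale (adjusted p = 2.84e-08), from 156 to 190 CPM in OAL to 77.9 to 103 CPM in OCR. Pfkfb3, which makes the fructose 2,6-bisphosphate that activates phosphofructokinase, fell by 0.89 on the log2 scale (adjusted p = 7.50e-08), with 76.5, 62.6, 67.9 and 79.2 CPM in OAL against 37.0, 39.5, 38.5 and 38.1 CPM in OCR. For all of these the OCR libraries lay wholly below the OAL libraries, and each call was kept in 15 of 15 alternative settings. Over the list the median log2 fold change was -0.12.

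Of 13 genes for the entry of pyruvate into mitochondria, 3 fell and none rose, all of them pyruvate dehydrogenase kinases, which switch off the enzyme that commits pyruvate to oxidation. Pdk4 gave 8.28, 8.90, 8.66 and 13.7 CPM in OAL and 1.18, 1.71, 2.41 and 2.17 CPM in OCR, a log2 fold change of -2.40 (adjusted p = 7.76e-09). Pdk2 ranged from 55.2 to 59.0 CPM in OAL and from 40.6 to 50.5 CPM in OCR (log2 fold change -0.38, adjusted p = 0.00926), and Pdk1, at -0.30 (adjusted p = 0.0409), kept its call in only 6 of 15 settings. The median of the list was -0.01, so the rest of it, with the subunits of pyruvate dehydrogenase and of the mitochondrial pyruvate carrier, was centred near 0.

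Among 25 other isozymes and transporters of glycolysis, 3 fell: Ldhb, the lactate dehydrogenase subunit that favours the use of lactate, at -0.36 (adjusted p = 0.00483), Slc2a3, the glucose transporter GLUT3, at -0.33 (adjusted p = 0.0104), and the hexokinase Hk3 at -0.35 (adjusted p = 0.0118). Slc2a3 gave 261 to 287 CPM in OAL and 195 to 230 CPM in OCR. The count of 3 in 25 stands beside the 10.2% that passed among genes at least as abundant as the lowest of the 10. Steps without an isozyme among the 10 genes lay near 0, with log2 fold changes of -0.04 for Gapdh (adjusted p = 0.879) and -0.02 for Tpi1 (adjusted p = 0.955), and Hk1, the more abundant hexokinase, was at 0.03 (adjusted p = 0.904). Pfkp, the platelet-type phosphofructokinase, was at -0.20 (adjusted p = 0.186). Of 18 HIF factors, regulators and targets, Vegfa rose (log2 fold change 0.55, adjusted p = 0.0262) and Epas1, which encodes HIF2A, fell (-0.68, adjusted p = 0.0351), the latter in only 5 of 15 settings. None of 8 pentose phosphate genes and none of 6 gluconeogenesis genes tested passed, at list medians of -0.08 and 0.20.

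**Figure D2:**
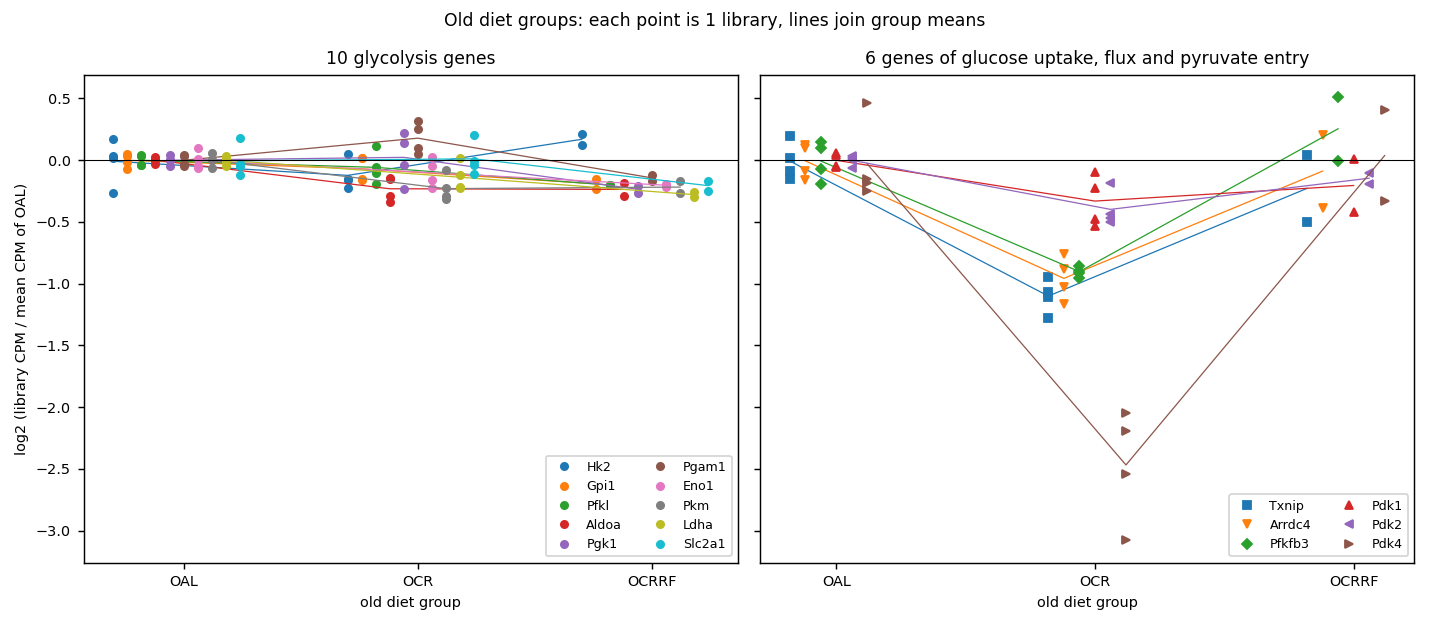
Log2 of each library's CPM over the OAL mean (vertical axis) for the 10 glycolysis genes (left) and for 6 genes of glucose uptake, flux and pyruvate entry picked because they passed the test in OCR against OAL (right), in the 3 old diet groups, with lines joining group means. The glycolysis genes stay within a narrow band around 0 in all 3 groups, while Txnip, Arrdc4, Pfkfb3 and Pdk4 drop in OCR and stand higher again in OCRRF.

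The second comparison asks what refeeding did after lifelong restriction, with OCRRF set against the same OCR libraries and then against the same OAL libraries. The 3 contrasts share libraries, so their values are given side by side and not as independent evidence. None of the 10 genes passed the test between OCRRF and OCR, where 3.41% of 32577 genes did. DESeq2 called 1 of them (Pgam1) and 3 had an unadjusted p below 0.05. Log2 fold changes had a median of -0.19, beside 0.11 over all genes and -0.14 over genes with at least 5 CPM, and 9 of 10 were below 0.

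Pgam1 gave 47.9 and 46.3 CPM in OCRRF, below all of its OCR values given above, with a log2 fold change of -0.38 (SE 0.13, adjusted p = 0.0994). Pgk1, which makes the first ATP of the payoff phase, gave 73.5 and 76.4 CPM in OCRRF against 97.4, 103, 85.7 and 75.1 CPM in OCR on the scale of all diet libraries, and -0.33 (SE 0.13, adjusted p = 0.178) in the fit. Slc2a1 was at -0.28 (SE 0.13, adjusted p = 0.258), and Hk2, at 0.23 (SE 0.13, adjusted p = 0.349), was the only one above 0, at 63.2 and 59.2 CPM in OCRRF. Scaled for the contrast alone, both OCRRF libraries lay below all 4 OCR libraries for 6 genes (Gpi1, Pfkl, Pgk1, Pgam1, Ldha and Slc2a1), where 13.4% of all genes did, and for none did they lie above, where 15.2% did. Granulocyte and monocyte markers (8 genes, among them Lyz2 and Prtn3) summed to 789 and 790 CPM in OCRRF against 597 to 708 CPM in OCR, a difference in which the primary granule genes Mpo, Elane and Ctsg stayed under 10 CPM, and mitochondrial genes took 1.38 to 1.53% of counts in OCRRF against the 1.14 to 1.29% of OCR. The part of both in these values was not tested.

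The values moved with the scaling. With TMM factors taken from genes of at least 5 CPM, the median of all genes moved from 0.11 to 0.24 and that of the 10 genes from -0.19 to -0.05, and Hk2 was then called higher at 0.37.

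Ldha was the one member that passed the test between OCRRF and OAL, where 4.14% of 31816 genes did and 2.48% did in the lower direction. It gave 1038 and 1068 CPM in OCRRF and 1309, 1240, 1289 and 1272 CPM in OAL, a log2 fold change of -0.29 (SE 0.06, adjusted p = 0.0212). The call rests on all 6 libraries: it was lost whenever any single library was left out (log2 fold change -0.32 to -0.25) and with the TMM factors from genes of at least 5 CPM (-0.15). Aldoa at -0.25 (SE 0.06, adjusted p = 0.0366) and Pkm at -0.23 (SE 0.06, adjusted p = 0.0470) had an adjusted p below the limit but a fold below 1.2.

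Gpi1 (-0.20), Pfkl (-0.21), Pgk1 (-0.25) and Eno1 (-0.21) had adjusted p from 0.0600 to 0.0737. For 9 of the 10 genes, all but Hk2, both OCRRF libraries lay below all OAL libraries, a pattern shown by 16.8% of all genes, and 22.4% showed the opposite one. DESeq2 called 7 of the 10 in this contrast and its size factors in edgeR 6, while the TMM factors from genes of at least 5 CPM gave 0, with the median of the 10 at -0.07 and that of all genes at 0.27 in place of -0.22 and 0.12. Over genes with at least 5 CPM the median was -0.14 with the usual TMM factors, and of the genes at least as abundant as the lowest of the 10, 11.8% passed. Other measures were also wholly apart in this contrast, each at an exact p of 0.0667. The olfactory and vomeronasal receptor genes took 1161 to 1486 CPM in OCRRF against 530 to 752 CPM in OAL. T cell markers summed to 6.27 to 7.19 CPM against 2.96 to 3.51 CPM and megakaryocyte markers to 52.1 to 60.7 CPM against at least 62.9 CPM in every OAL library, and the part of these in the differences was not tested. Hk2 again differed in sign, at 0.16 (adjusted p = 0.335).

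Of the 13 regulators of flux 3 rose with refeeding and none fell, and of the 13 genes of pyruvate entry 1 rose. Pfkfb3 gave 102 and 71.3 CPM in OCRRF and was higher than in OCR by 1.13 on the log2 scale (adjusted p = 1.84e-07), and Pdk4, at 13.1 and 7.93 CPM, was higher by 2.45 (adjusted p = 4.02e-08). Txnip, with 2406 and 1647 CPM, and Arrdc4, with 201 and 134 CPM, both rose by 0.84 (adjusted p = 2.99e-05 and 5.05e-05), and both lost the call without OCRRF replicate 1, the higher of the pair. Slc16a1, a transporter of lactate and pyruvate, fell (-0.58, adjusted p = 0.00718), as did Hif1a, which encodes HIF1A (-0.53, adjusted p = 0.0121), and the gluconeogenic Fbp1 (-0.72, adjusted p = 0.0193), calls kept in 11, 9 and 8 of 13 settings. Proliferation genes fell in 13 of 13 cases, with a median of -1.45.

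Against OAL, OCRRF was lower for Tpi1, the triose isomerase (-0.30, adjusted p = 0.0277), for Pfkp (-0.27, adjusted p = 0.0370), for Pdha1 of pyruvate dehydrogenase and for 3 of 8 pentose phosphate genes, G6pdx (-0.35), Tkt (-0.27) and Taldo1 (-0.30). The HIF target Ndrg1 was lower as well (-0.51, adjusted p = 0.0239). Each of these calls was kept in only 4 to 6 of 13 settings. No regulator of flux passed in this contrast.

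The third comparison addresses short-term restriction in young mice, without ageing. Pkm, which makes pyruvate and the last ATP of the pathway, was the one of the 10 genes that passed the test between YCR and YAL, where 0.257% of 18680 genes did and 0.193% did in the lower direction. It gave 1005, 1046, 995 and 1016 CPM in YAL and 811, 787, 752 and 778 CPM in YCR, a log2 fold change of -0.36 (SE 0.05, adjusted p = 0.0170). Every YCR library lay well below every YAL library, and no other gene of the 10 had groups apart (3.35% of all genes did in the lower direction and 2.85% in the higher). The size held at -0.37 to -0.35 where the call was lost, which was without YCR replicate 2 or 3, without YAL replicate 2 or 4, without the low count filter and with the replicate number as a block.

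The other 9 genes had log2 fold changes of -0.21 (Hk2) to 0.05 (Slc2a1). Eno1 was at -0.17 (adjusted p = 0.534), with 549, 532, 477 and 557 CPM in YAL against 521, 445, 449 and 443 CPM in YCR, where replicate 1 fell within the YAL range. Ldha was at -0.11 (adjusted p = 0.617). Proliferation genes summed to 2057 to 2112 CPM in YCR and 1594 to 1916 CPM in YAL, and their part in the Pkm difference was not tested.

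Of the other lists, Aldoc, the brain-type aldolase, fell by 1.34 on the log2 scale (adjusted p = 0.0285) from 46.0, 45.9, 42.8 and 46.1 CPM to 17.2, 11.2, 19.4 and 22.1 CPM, and Pdk1 fell by 0.81 (adjusted p = 0.0483) from 152, 179, 164 and 109 CPM to 90.9, 91.6, 76.2 and 80.7 CPM. Both pairs of groups were apart, and both calls were kept in 7 of 15 settings.

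After refeeding of young mice, none of the 10 genes passed the test against YCR (0.0102% of 19535 genes did) or against YAL (0.0% of 19334 did, with 714 at an unadjusted p below 0.05). DESeq2 called none of the 10 in either contrast, and 1 and 0 of them had an unadjusted p below 0.05. Pkm gave 909, 912, 900.2 and 929 CPM in YCRRF, above all 4 YCR libraries (log2 fold change 0.21, SE 0.08, adjusted p = 0.595) and below all 4 YAL libraries (-0.15, adjusted p = 0.995). Granulocyte and monocyte markers summed to 818 to 1843 CPM in YCRRF against 484 to 775 CPM in YCR and proliferation genes to 966 to 1605 against 2057 to 2112 CPM (exact p = 0.0286 for each), and their part in the Pkm difference was not tested. Of all genes, 2.75% were apart above and 2.87% below YCR, and 1.31% above and 1.91% below YAL. The other 9 genes ranged from -0.25 (Pgam1) to 0.30 (Hk2) against YCR and from -0.21 (Pgam1) to 0.20 (Slc2a1) against YAL, with all groups overlapping. YCRRF libraries spread widely for the low genes, with Slc2a1 at 102, 94.1, 52.1 and 83.1 CPM, and leaving out any 1 of them, replicates 3 and 4 included, brought no call for any of the 10.

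**Figure D3:**
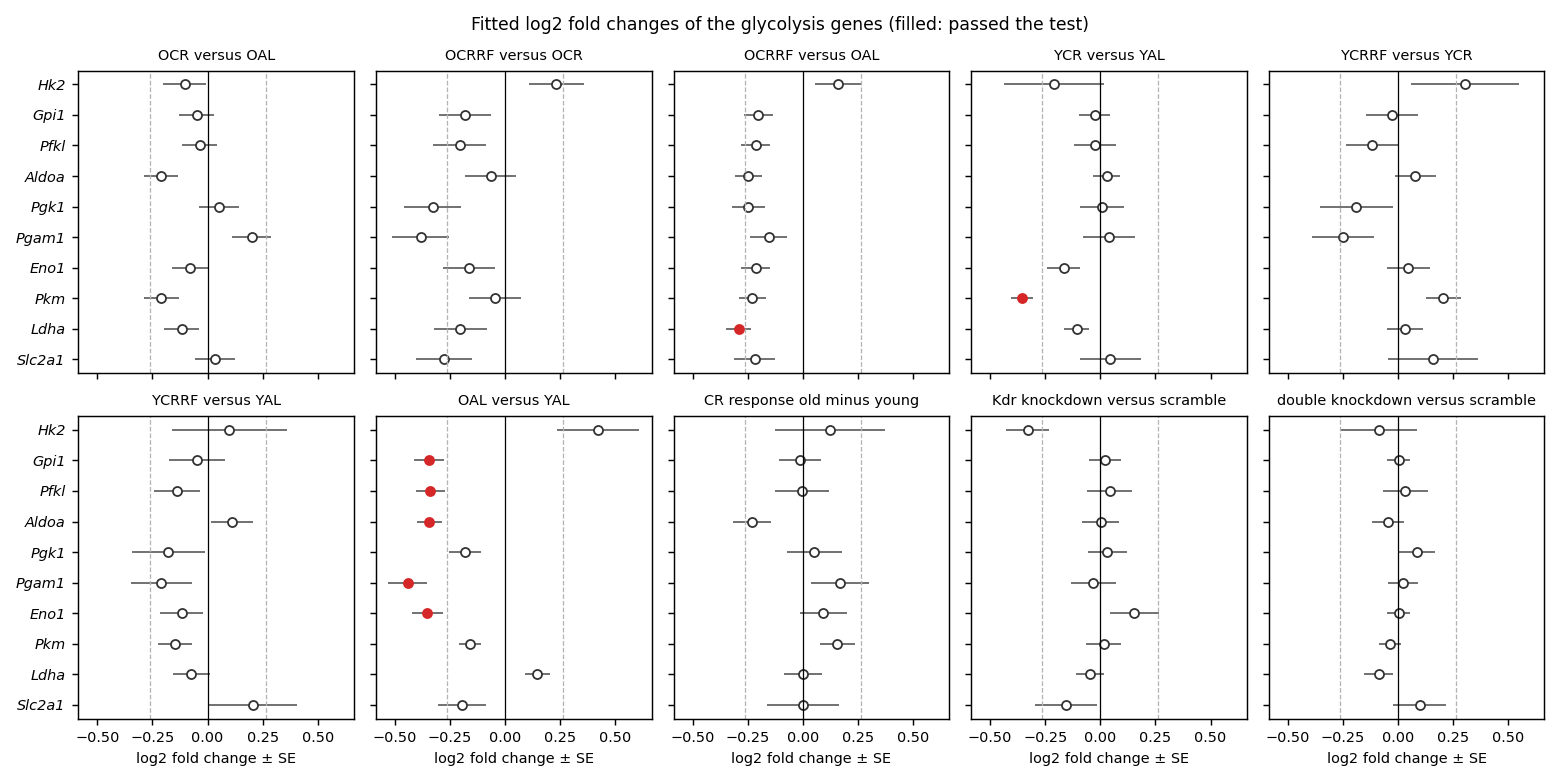
Fitted log2 fold change with its SE (horizontal axes) of each of the 10 genes in each of the 10 contrasts, among them OCR versus OAL, YCR versus YAL and each knockdown versus its scramble, with filled points for those that passed the test and dashed lines at a fold of 1.2. Filled points stand only for Ldha in OCRRF versus OAL, Pkm in YCR versus YAL and 5 genes in OAL versus YAL.

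Age was the contrast with the most calls among the 10 genes in this fit, 5 against 0 or 1 in each of the others, an order that other settings changed: DESeq2 called 5 with age and 7 in OCRRF against OAL. Between OAL and YAL, 5 fell (Gpi1, Pfkl, Aldoa, Pgam1 and Eno1) and none rose, where 14.8% of 23525 genes passed, 7.93% in the lower direction, and 26.5% of genes at least as abundant as the lowest of the 10 passed. The median log2 fold change was -0.27, beside 0.05 over all genes and -0.13 over genes with at least 5 CPM. Aldoa gave 744, 683, 656 and 692 CPM in YAL against 541, 531, 551 and 543 CPM in OAL, a log2 fold change of -0.34 (SE 0.06, adjusted p = 0.00433). Gpi1 gave 492, 416, 426 and 437 CPM in YAL and 341, 328, 354 and 357 CPM in OAL (-0.35, SE 0.07, adjusted p = 0.00965). No OAL library reached the lowest YAL library for either gene.

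Pfkl, the liver-type phosphofructokinase and the committed step, gave 281, 312, 263 and 288 CPM in YAL and 229, 231, 218 and 218 CPM in OAL (-0.34, SE 0.06, adjusted p = 0.00746). Eno1 gave 392, 396, 438 and 411 CPM in OAL, below its YAL values given above (-0.35, SE 0.07, adjusted p = 0.00868). Pgam1 fell from 67.7, 73.9, 65.8 and 78.1 CPM to 53.2, 51.0, 53.5 and 50.4 CPM (-0.44, SE 0.09, adjusted p = 0.00942). In each the age groups were apart, as they were, without a call, for Pgk1 (-0.18, adjusted p = 0.120) and Pkm (-0.16, SE 0.05, adjusted p = 0.0551), which makes 7 of 10 apart in the lower direction and none in the higher, beside 11.5% and 15.6% of all genes. Markers that the sort gates out (Flt3, Cd34 and Cd48) summed to 130 to 165 CPM in OAL and 169 to 216 CPM in YAL, proliferation genes to 1061 to 1176 and 1594 to 1916 CPM and T cell markers to 2.96 to 3.51 and 0.644 to 1.79 CPM, and their part in these differences was not tested.

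Ldha and Hk2 went the other way without passing the test. Ldha was at 0.15 (SE 0.06, adjusted p = 0.0989), and Hk2 at 0.42 (SE 0.19, adjusted p = 0.148), with 55.1, 61.4, 45.2 and 55.8 CPM in OAL against 33.9, 35.5, 60.0 and 34.1 CPM in YAL. YAL replicate 3 held the Hk2 groups together: without it Hk2 was called at 0.66. The size of the age difference depended on scaling, since TMM factors from genes of at least 5 CPM moved the median of all genes to 0.16 and of the 10 genes to -0.15 and kept only the call of Pgam1, as did a filter of at least 10 counts in every library (median -0.16).

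Calls with age were also found in the neighbouring pathways. In OAL 4 of 8 pentose phosphate genes fell, among them Tkt, transketolase (-0.64, adjusted p = 0.000261), and Pgd (-0.46), while the calls of Pgls (-0.42) and Taldo1 (-0.29) were kept in 7 and 3 of 15 settings. Of 22 other glycolysis genes tested, Tpi1 (-0.34, adjusted p = 0.00788) and Aldoc (-0.55) fell. Gapdh (-0.20, adjusted p = 0.0257) and Ldhb (-0.22, adjusted p = 0.0391) had folds below 1.2. Pdhx of pyruvate dehydrogenase fell (-0.46, adjusted p = 0.0159) and G6pc3, a glucose-6-phosphatase, rose (0.29, adjusted p = 0.0430), calls kept in 7 and 5 of 15 settings. Pfkfb3 rose (0.60), as did the HIF targets Ndrg1 (0.88) and Ddit4 (1.68), while Vegfa fell (-1.44). Proliferation genes fell in 10 of 13 cases.

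Whether the response to restriction differed between old and young mice was tested as an interaction, OCR minus OAL against YCR minus YAL. None of the 10 genes passed (0.0424% of 28328 genes did), 1 had an unadjusted p below 0.05 and DESeq2 called none. Aldoa, at -0.21 in the old and 0.03 in the young, had the largest difference, -0.23 (SE 0.09, adjusted p = 0.446). Pkm, which passed in the young at -0.36 and not in the old at -0.21, differed by 0.16 (adjusted p = 0.608), so no difference between the ages was shown for it.

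The last comparison sets each knockdown against its own scramble. The target came first: Kdr gave 1.93, 2.21, 3.28 and 2.03 CPM in GFP_Kdr against 6.04 and 6.07 CPM in GFP_Scramble (log2 fold change -1.35, adjusted p = 0.247). It gave 1.24, 0.555, 1.60 and 1.35 CPM in Double_KdrBmpr against 3.97 and 4.62 CPM in Double_Scramble (-1.86, adjusted p = 0.272). Bmpr1a gave 4.44, 0.656, 2.22 and 0.595 CPM in Double_KdrBmpr against 5.21 and 4.43 CPM in its scramble (-1.29, adjusted p = 0.602), with replicate 1 within the scramble range. All Kdr values were lower in the knockdown libraries, and none of these differences passed the adjusted test.

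None of the 10 glycolysis genes passed in either knockdown, where 0.0149% of 20098 and 0.00498% of 20072 genes did. DESeq2 called none of the 10, and 1 and 0 had an unadjusted p below 0.05. The median log2 fold change of the 10 was 0.01 with Kdr knockdown and 0.00 with the double knockdown. Hk2 had the largest difference, with 29.9, 32.5, 33.7 and 31.9 CPM in GFP_Kdr against 37.7 and 42.7 CPM in GFP_Scramble (-0.33, SE 0.10, adjusted p = 0.392 by edgeR), and the groups were apart, as for 11.3% of genes in that direction and 10.6% in the other. Flt3, Cd34 and Cd48 summed to 494 to 593 CPM in GFP_Kdr and 401 to 479 CPM in GFP_Scramble, and their part in the Hk2 difference was not tested. In the double knockdown Hk2 gave 32.8, 41.4, 25.6 and 32.0 CPM against 34.0 and 35.9 CPM (-0.08), with overlapping groups. The 10 genes ranged there from -0.09 (Ldha) to 0.10 (Slc2a1), with adjusted p of at least 0.722, and no groups were apart, beside 10.6% of all genes in the higher and 10.7% in the lower direction.

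Chromatin gave measures of these genes that were not used to choose them. All 10 had an ATAC-seq peak within 1 kb of an annotated start, 13 peaks in all, with a median at percentile 97.2 of all peaks by mean level. The range was wide, from percentile 28.0 for the second Pgam1 peak and 54.9 for the second Pkm peak to 99.6 for Ldha, and the most open promoter peak of each gene stood at percentile 84.4 (Pgam1) or above. Between OCRRF and OCR, edgeR called none of the 13 (a fold over 1.5, an adjusted p below 0.05 and a mean log2 CPM over 1.5), where 0.221% of 123372 peaks and 0.15% of 16032 promoter peaks of any gene passed. DESeq2 called none, 1 had an unadjusted p below 0.05, and none of 21 peaks within 5 kb was called. The median log2 fold change of the 13 was 0.06, beside -0.01 over all peaks.

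The Pgk1 promoter peak (chrX:106186553-106187418) held 53.9, 53.6, 56.3 and 61.6 CPM in OCR and 63.8 and 64.4 CPM in OCRRF, a log2 fold change of 0.19 (SE 0.07, adjusted p = 0.249). The Ldha peak, the most open of the 13, held 92.7 to 102 CPM in OCR and 103 and 109 CPM in OCRRF (0.11, adjusted p = 0.456). Those of Pfkl (0.11) and Aldoa (0.12) also had both OCRRF libraries above all OCR libraries, so that 4 of 13 peaks were apart in the higher direction and none in the lower, beside 10.4% and 9.99% of all peaks. The RNA of Pgk1, Ldha and Pfkl in the same pair of diets lay in the other direction, at -0.33, -0.20 and -0.21, with neither readout passing its test. The RNA median was itself -0.14 over genes with at least 5 CPM. Over the alternative settings these RNA values ran from -0.49 to -0.19, from -0.30 to -0.06 and from -0.31 to -0.07. The fewest counts in any of these peaks in a library were 22, and libraries held 15721335 to 19558148 counts in peaks.

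At their promoters in OCR, H3K4me3, the mark of active starts, was above the median of 25127 genes for 10 of 10, with percentiles from 63.2 (Pgk1) to 94.8 (Pgam1) and a median of 86.7. The signal was 19.8 to 41.4, with a median of 35.0, against 8.99 over all genes, on the scale of the deposited mean signal per base. H3K27me3, the mark of Polycomb repression, was below the median of all genes for 10 of 10, with percentiles from 2.05 (Pgk1) to 38.9 (Hk2) and a median of 13.2. The H3K27me3 order of the 10 rests on the mean of libraries that differed. In the mean Hk2 was highest at 0.229 and Pgk1 lowest at 0.0578, but in replicate 1 Eno1 (0.232) stood above Hk2 (0.186) and Pkm (0.0472) below Pgk1 (0.0691). In H3K4me3 Pgk1 was the lowest of the 10 in both libraries. With 2 libraries of 1 diet these marks allow no comparison between diets.

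PU.1 peaks stood at the promoters of Aldoa and Pkm in both OAL and both OCR libraries and at none of the 10 promoters in either OCRRF library. Fold enrichment at the Aldoa peak, which covers the GAGGAAG site printed above, was 6.78 and 7.67 in OAL and 8.66 and 8.31 in OCR. At the Pkm peak it was 10.5 and 8.80 in OAL and 8.24 and 7.64 in OCR. The OCRRF libraries had fewer peaks in all, 2817 and 2262 against 2900 to 5464, and a peak list gives no value under the caller's threshold. Of 421 genes with a promoter peak in all 4 OAL and OCR libraries, 46 (10.9%) had none in either OCRRF library and 290 (68.9%) had one in both. In each library 1.75 to 4.44% of 27025 genes had a promoter peak. The study's methods list 2 antibodies against PU.1 and do not say which library was made with which, and with 2 libraries a diet no test was made. Aldoa and Pkm RNA differed between OCRRF and OCR by -0.07 and -0.05 on the log2 scale, without a call.

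**Figure D4:**
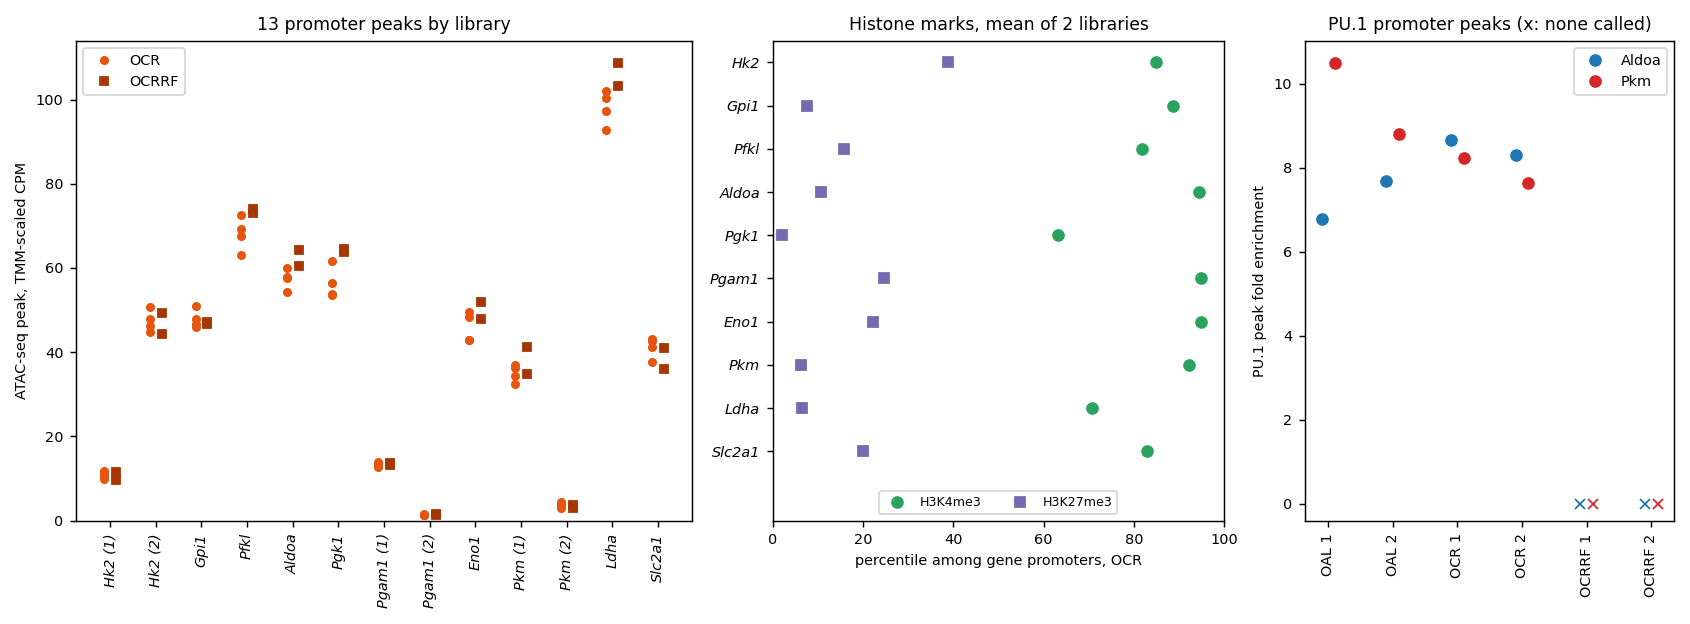
Left, TMM-scaled CPM of the 13 ATAC-seq promoter peaks (vertical axis) in each OCR and OCRRF library; middle, percentile (horizontal axis) of the H3K4me3 and H3K27me3 signal of each gene among all gene promoters in OCR, as the mean of 2 libraries; right, fold enrichment (vertical axis) of the PU.1 promoter peaks of Aldoa and Pkm in each library, with crosses at 0 where no peak was called. ATAC-seq values of OCR and OCRRF lie close together, H3K4me3 is high and H3K27me3 low for all 10, and the PU.1 peaks of Aldoa and Pkm are listed in OAL and OCR only.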

How the data were processed

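RNA was measured in 34 libraries, ATAC-seq in 6, PU.1 in 6 and histone marks in 4. For RNA-seq the authors mapped reads to mm10 with STAR on GENCODE M22 and deposited counts per gene from featureCounts; for ATAC-seq they deposited counts per consensus peak. For PU.1 the authors deposited MACS2 peaks with their score, their fold enrichment (a ratio) and -log10 of p-values and q-values, and for histone marks a scaled signal per promoter window. Columns of samples outside the series numbered 0. Samples were grouped by the sample labels. OAL libraries of ATAC-seq and histone marks were not analysed here.

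Counts were fitted in R 4.3.3 with edgeR 4.0.16 (filterByExpr, TMM, quasi-likelihood, Benjamini-Hochberg adjustment over all genes or peaks), each contrast on its own groups, and the interaction on 4 groups. The test was passed at a fold over 1.2 and an adjusted p below 0.05. DESeq2 1.42.0, other scalings, other filters, 1 fit of 6 groups, a replicate block and leaving out each library were the alternatives. CPM printed per library were scaled over all diet or all transplanted libraries together. RPKM used exon lengths of GENCODE M21. Replicates differed by more than counting noise. Exact permutation tests were two-sided. The scripts were tested on simulated data. Counts set the precision of RNA-seq and ATAC-seq values. For PU.1 and histone libraries the paper's reporting summary lists read numbers, with no PU.1 library there named as OCRRF. The part of depth in the PU.1 peak lists was not tested.

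The members and the lists were chosen with earlier results of these data known. All 10 members were named in every comparison; of the pathway lists, Hk1, Pfkp, Tpi1, Gapdh, Ldhb and Slc2a3, and of the others those called, at most 5 a list of the largest change with a mean of 5 CPM or more; and Kdr and Bmpr1a. The settings behind the pathway genes' calls were added after seeing the data. PU.1 promoter peaks lay within 1 kb of a start.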

Additional observations from a re-analysis of the deposited data

Results flagged for a closer look

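Sets of 4 libraries were checked for 1 library far from the rest. A set was 1 gene in 1 RNA-seq group or 1 ATAC-seq promoter peak in OCR. Of 83 sets, 3 held such a library, and chance alone would give about 4.15. Hk2 in YAL had its highest library, replicate 3, at 60.0 CPM, with the others at 33.9 to 35.5 CPM. Eno1 in YCR had its highest library, replicate 1, at 521 CPM, with the others at 443 to 449 CPM. Aldoa in Double_KdrBmpr had its lowest library, replicate 4, at 553 CPM, with the others at 635 to 641 CPM. Only the first bears on a call, since Hk2 passed the test between OAL and YAL once that library was left out.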

How the results depend on the processing

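No call of the 10 genes turned its direction in any alternative run, and of 1460 values 23 lost a call and 21 gained one. The number of the 10 that passed moved as follows, and beyond the makeup of each setting the cause was not tested. In OCR against OAL it was 0 to 1 with libraries left out one at a time. In OCRRF against OCR it was 1 with TMM factors from genes of at least 5 CPM (median log2 fold change -0.054), 1 with DESeq2 and 0 to 2 with libraries left out. In OCRRF against OAL it was 0 with at least 10 counts in every library (median -0.17), 6 with DESeq2 size factors (median -0.27), 7 with DESeq2 (median -0.27), 0 with TMM factors from genes of at least 5 CPM (median -0.071), 0 with 1 fit of 6 groups, and 0 whichever library was left out (median -0.23 to -0.18). In YCR against YAL it was 0 without a low count filter and 0 to 1 with libraries left out. In OAL against YAL it was 1 with at least 10 counts in every library (median -0.16), 1 with TMM factors from genes of at least 5 CPM (median -0.15) and 5 to 6 with libraries left out.

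Totals over all genes moved too: in OCRRF against OAL from 1316 to 38 to 385 with libraries left out, 0 with 1 fit of 6 groups and 3835 with DESeq2, and in YCR against YAL from 48 to 6 to 28 with libraries left out, 368 without a filter and 452 with DESeq2. For OCR against OAL 1 fit of 6 groups gave 212 in place of 1511. Of the calls of pathway genes, 959 of 1191 were kept over the settings and 232 were lost.

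Equal replicate numbers did not mark paired libraries, with correlations of deviations from -0.17 to 0.19 in RNA-seq and of -0.011 and -0.013 in ATAC-seq. With the number as a replicate block, 3 of the 10 passed in OCRRF against OCR (Pgk1, Pgam1 and Ldha; 3437 genes in all), 0 in YCR against YAL (7 genes in all) and, as without it, 0 in OCR against OAL, 1 in OCRRF against OAL and 5 in OAL against YAL. No paired analysis was possible for the double knockdown because the labels number its libraries within each Bmpr1a shRNA.

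For chromatin, a 10 kb window gave 1 gene with a PU.1 peak (Aldoa) in OCRRF replicate 2 in place of 0, at a site other than the promoter peak, and 3 in OCR replicate 1 in place of 2 (Hk2 added), the highest transcript of a gene gave median percentiles of 16.9 for H3K27me3 and 86.1 for H3K4me3, and all transcripts as background gave 85.9 for H3K4me3.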
